A study of Arabidopsis thaliana with 12 samples.

Results

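The 8 genes described here encode the early light-induced proteins ELIP1 and ELIP2 and their relatives among the light-harvesting-like proteins, OHP1, OHP2, SEP1, SEP2, LIL3:1 and LIL3:2. They were chosen by name as a family and not by a rule on their values, though with earlier results of these data known. They are 8 of the 33078 nuclear loci in the authors' table of all conditions. The values come from whole Arabidopsis thaliana seedlings of the Col-0 wild type (WT) and of *sig2-2*, a single T-DNA insertion line in Col-0 (SALK_045706). SIG2 is a sigma factor made in the nucleus that works with the plastid-encoded RNA polymerase, and the study asked how its loss alters nuclear gene expression in red light. All seedlings were stratified for 4 days, kept at 22 °C on medium with 1% sucrose, and given either 1 day or 7 days of constant red light, at a fluence rate of 50 μmol m−2 s−1. Each of the 4 conditions, WT and *sig2-2* at 1 day and WT and *sig2-2* at 7 days, had 3 biological replicates, which makes 12 samples.

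Each value below is the authors' FPKM (mapped fragments counted relative to transcript length and library size) for a locus in a condition, with the 3 replicates combined by the authors into 1 number. No spread between replicates can be given beside any value, no difference was tested, and the read depth of each condition is unknown. A change is log2 of (FPKM + 1) in one condition over (FPKM + 1) in the other, and 2-fold, a change of 1, serves only as a mark of size. Because FPKM is scaled to transcript length, levels are also compared between genes. The seedlings were taken whole, so fewer cells of a type and less RNA per cell cannot be told apart.

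Light-harvesting-like proteins sit in the thylakoid membrane and share the chlorophyll-binding helix of the antenna proteins, but most of them do not collect light. ELIPs build up transiently when etiolated seedlings green and again under strong light or UV, and are thought to bind free chlorophyll and limit photo-oxidative damage. The one-helix proteins OHP1 and OHP2 form a complex with HCF244 that serves the synthesis of the D1 protein and the assembly of photosystem II. The stress-enhanced proteins SEP1 and SEP2 were named for transcripts that increase under light stress. LIL3 proteins hold enzymes of chlorophyll synthesis, geranylgeranyl reductase and protochlorophyllide oxidoreductase, at the membrane.

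The rule, an Arabidopsis gene identifier in the first column, found 6 of the 8 genes directly. *SEP1* (AT4G34190) and *SEP2* (AT2G21970) were found by position, because their rows carry the numbers 41518 and 41519 in place of a name. A spreadsheet reads these numbers as the dates 1 September and 2 September, and each number also stands at a second locus elsewhere in the genome. In all, 10 loci of the table carry a whole number as their name. The table's positions follow the TAIR assembly, since 12583 loci begin and 12477 end at the same base as the gene of that identifier in TAIR10.1. All 8 genes were listed above 1 FPKM in every condition.

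*ELIP1* and *ELIP2* were the genes of the family whose levels were lower at 7 days than at 1 day. *ELIP1* (AT3G22840, listed at chromosome 3, 8084447 to 8085560) was listed at 163 FPKM in 1-day WT, 218 FPKM in 1-day *sig2-2*, 14.8 FPKM in 7-day WT and 8.72 FPKM in 7-day *sig2-2*. In WT it went from place 956 of the 18186 loci listed at 1 FPKM or more at 1 day to place 8679 of 19456 at 7 days. *ELIP2* (AT4G14690, listed at chromosome 4, 8418283 to 8419263) had, on day 1, 48.5 FPKM in WT against 52.2 FPKM in *sig2-2* and, on day 7, 14.0 FPKM in WT against 1.94 FPKM in *sig2-2*. Thus both genes were somewhat higher in the mutant at 1 day and lower in it at 7 days (at 1 day *ELIP2* turned to −0.037 on the scale without AT2G01021, the locus with the highest value), and *ELIP2* in 7-day *sig2-2* was the lowest value of any of these genes in any condition.

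The pair did not keep its proportions. The level of *ELIP2* relative to *ELIP1* was 0.298 in 1-day WT, 0.239 in 1-day *sig2-2*, 0.951 in 7-day WT and 0.223 in 7-day *sig2-2*. In other words, *ELIP2* was nearly level with *ELIP1* in 7-day WT and remained well below it in the other 3 conditions. The change from WT to *sig2-2* was 0.42 for *ELIP1* and 0.10 for *ELIP2* at 1 day. At 7 days it was −0.70 for *ELIP1*, a 1.69-fold lower FPKM, and −2.35 for *ELIP2*, a 7.23-fold lower FPKM. At 7 days 20057 loci reached 1 FPKM in WT or *sig2-2*, and of these only 130 had a change below that of *ELIP2*, and 1539 had one below that of *ELIP1*.

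**Figure D1:**
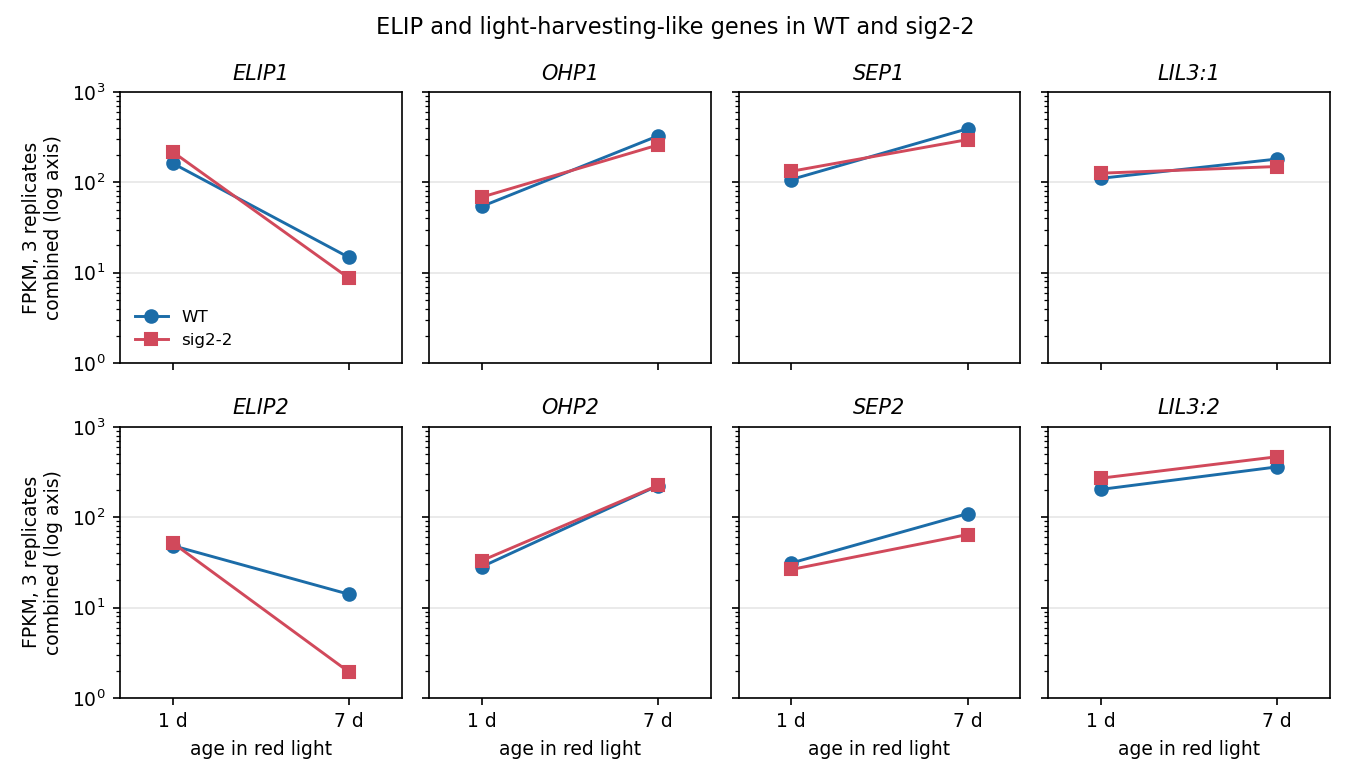
FPKM of the 8 genes at 1 day and 7 days, on a log axis, with WT as blue circles and *sig2-2* as red squares, each point the authors' value for 3 combined replicates, with no error available. *ELIP1* and *ELIP2* slope downward, with *ELIP2* reaching 1.94 FPKM in 7-day *sig2-2* against 14.0 FPKM in WT, and the other 6 genes slope upward in both genotypes.

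The reads could tell the 2 *ELIP* transcripts apart. Their coding sequences match at 78.9% of 564 aligned bases in TAIR10.1, the transcripts share no word of 55 bases (the length of a read), and no such word within the exons of either gene occurs elsewhere in the genome. The longest run they have in common is 26 bases, in *ELIP1* at chr3:8084926-8084951 on the minus strand. It is shown because it is the longest stretch that the 2 transcripts share, and it is shorter than a read of 55 bases.
ELIP1 and ELIP2, shared run: ttgctagcgtttagcggtccagcacc

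The windows from 250 bases before to 50 bases after the annotated starts of *ELIP1* and *ELIP2* are shown because these genes were lower with age in both genotypes yet differed in the mutant at 7 days. They were read from the RefSeq TAIR10.1 genome, at chr3:8085620-8085919 on the minus strand for *ELIP1* and chr4:8417992-8418291 on the plus strand for *ELIP2*. Capitals mark the letters searched on both strands, which were CACGTG (the G-box), ACGT (its core, which every CACGTG also contains), GATAAG (the I-box) and TATAAA.
ELIP1: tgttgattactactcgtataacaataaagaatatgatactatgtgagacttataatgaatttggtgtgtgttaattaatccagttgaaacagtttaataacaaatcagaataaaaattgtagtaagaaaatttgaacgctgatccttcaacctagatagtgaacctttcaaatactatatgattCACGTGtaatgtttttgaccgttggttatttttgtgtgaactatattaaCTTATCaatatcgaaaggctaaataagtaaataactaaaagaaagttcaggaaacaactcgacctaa
ELIP2: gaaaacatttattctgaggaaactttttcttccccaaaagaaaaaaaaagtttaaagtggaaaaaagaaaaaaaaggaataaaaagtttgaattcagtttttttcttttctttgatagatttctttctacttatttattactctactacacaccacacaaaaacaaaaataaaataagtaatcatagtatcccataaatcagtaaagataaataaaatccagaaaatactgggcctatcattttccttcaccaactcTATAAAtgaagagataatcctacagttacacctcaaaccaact

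The *ELIP1* window holds a G-box whose first base lies at −66 from the annotated start and an I-box at −17, read on the opposite strand. The *ELIP2* window holds neither, and its TATAAA begins at base 8 of the annotated gene. The authors' locus for *ELIP2* begins at 8418283, where the annotated gene begins at 8418242. For *ELIP1*, on the minus strand, their locus ends at 8085560 and the annotated gene at 8085669. The windows and positions therefore depend on which start is used. Among the 27443 windows of protein-coding nuclear genes, 7.68% hold CACGTG, 49.9% ACGT, 14.6% GATAAG and 52.1% TATAAA. In the family, CACGTG occurs in 2 of the 8 windows, those of *ELIP1* and *OHP1*. ACGT occurs in 6, GATAAG in that of *ELIP1* only, and TATAAA in those of *ELIP2*, *OHP1* and *SEP1*. A match is a description of the letters and not evidence of a bound site.

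*OHP1* and *OHP2* were among the genes that stood much higher at 7 days. *OHP1* (AT5G02120, listed under the symbol OHP) was listed at 54.2 FPKM in 1-day WT, 68.7 FPKM in 1-day *sig2-2*, 327 FPKM in 7-day WT and 259 FPKM in 7-day *sig2-2*. *OHP2* (AT1G34000) had, on day 1, 28.3 FPKM in WT against 33.1 FPKM in *sig2-2* and, on day 7, 224 FPKM in WT against 225 FPKM in *sig2-2*. From the 1st to the 7th day the change was thus 2.57 in WT and 1.90 in *sig2-2* for *OHP1*, and 2.94 in WT and 2.73 in *sig2-2* for *OHP2*. The genotypes lay close together at both ages, with changes of 0.34 and −0.33 for *OHP1* and of 0.22 and 0.0087 for *OHP2* at 1 day and 7 days. *OHP1* exceeded *OHP2* by a ratio of 1.91 for WT against 2.08 for *sig2-2* on day 1, and 1.46 for WT against 1.15 for *sig2-2* on day 7.

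The *SEP* genes also stood higher at 7 days. *SEP1* was listed at 107 FPKM in 1-day WT, 133 FPKM in 1-day *sig2-2*, 392 FPKM in 7-day WT and 297 FPKM in 7-day *sig2-2*. *SEP2* had, on day 1, 31.1 FPKM in WT against 26.4 FPKM in *sig2-2* and, on day 7, 110 FPKM in WT against 64.2 FPKM in *sig2-2*. *SEP2* was the gene of the family that was lower in the mutant at both ages, with changes of −0.23 at 1 day and −0.76 at 7 days, while *SEP1* had changes of 0.30 and −0.40. With age, the change was 1.86 in WT and 1.16 in *sig2-2* for *SEP1*, and 1.79 in WT and 1.25 in *sig2-2* for *SEP2*.

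The *LIL3* genes had the smallest changes with age in the family, though not between genotypes. *LIL3:1* (AT4G17600, chromosome 4, 9803705 to 9804872) was listed at 111 FPKM in 1-day WT, 126 FPKM in 1-day *sig2-2*, 181 FPKM in 7-day WT and 149.6 FPKM in 7-day *sig2-2*. *LIL3:2* (AT5G47110, chromosome 5, 19133986 to 19135317) had, on day 1, 203 FPKM in WT against 270.5 FPKM in *sig2-2* and, on day 7, 361 FPKM in WT against 467 FPKM in *sig2-2*. *LIL3:2* was the gene of the family with the highest FPKM in 3 of the 4 conditions, the exception being 7-day WT, where *SEP1* was higher. It was also higher in the mutant by a like amount at both ages, with changes of 0.41 and 0.37, while *LIL3:1* had changes of 0.19 and −0.27. The ratio of *LIL3:2* to *LIL3:1* was 1.83 for WT against 2.14 for *sig2-2* on day 1, and 1.99 for WT against 3.12 for *sig2-2* on day 7.

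The *LIL3* transcripts could likewise be told apart, although their coding sequences match at 80.3% of 762 aligned bases. They share no word of 55 bases, and the longest common run, shown for the same reason as that of the *ELIP* pair, is 40 bases long and lies in *LIL3:1* at chr4:9804081-9804120 on the plus strand. The *OHP* pair matches at 66.2% and the *SEP* pair at 61.2% of aligned coding bases, with no common run above 10 bases.
LIL3:1 and LIL3:2, shared run: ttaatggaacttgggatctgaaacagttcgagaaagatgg

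For 3 of the genes, *OHP1*, *OHP2* and *SEP2*, the table gives the same span to the gene and to an overlapping neighbour. *OHP1* shares chromosome 5, 419091 to 422032, with AT5G02130, *OHP2* shares chromosome 1, 12355568 to 12358966, with AT1G33990, and *SEP2* shares chromosome 2, 9354842 to 9357916, with AT2G21960. The sources used here do not say whether the reads kept their strand, so fragments in the overlaps cannot be told apart. The neighbours had other values in these comparisons. From WT to *sig2-2* at 7 days AT2G21960 had a change of 0.34 against −0.76 for *SEP2*, and with age in WT AT5G02130 had −0.13 against 2.57 for *OHP1* and AT1G33990 had 0.18 against 2.94 for *OHP2*. AT2G21960 was closer to the age change of *SEP2*, at 2.15 in WT against 1.79.

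A single locus outside the family may bear on the scale of every value. Its share of summed FPKM is not its share of fragments, and how the authors scaled their libraries is not known. The rescaling below is therefore an alternative scale and not a correction. Of the summed FPKM of the nuclear loci, AT2G01021 took up 32.6% in 1-day WT, 25.5% in 1-day *sig2-2*, 5.45% in 7-day WT and 11.4% in 7-day *sig2-2*. Rescaling without it moved the median age change of the 16872 loci listed at 1 FPKM or more in all conditions from −0.17 to −0.62 in WT and from −0.13 to −0.36 in *sig2-2*, and the median genotype change at 1 day from −0.01 to −0.15. With age, the share of the loci past 2-fold that were higher at 7 days went from 58.7% to 34.8% in WT and from 56.2% to 44.0% in *sig2-2*. On that scale the 1-day change of *ELIP2* turned to −0.037, the age change of *LIL3:1* in *sig2-2* turned to −0.0058, and the age change of *SEP1* in *sig2-2*, at 0.91, no longer reached 2-fold. Relative to the median of those loci, *LIL3:1* stood at 0.373 before and 0.355 after rescaling, and *SEP1* at 1.29 and 1.27. The 7-day change of *OHP2* turned to −0.024 when each condition was centred on its median. The *ELIP2* difference at 7 days and the age changes of both *ELIP* genes kept their direction and stayed past 2-fold on each of these scales.

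Between the genotypes, the differences of the family as a whole were small at 1 day. At that age 7 of the 8 genes were higher in *sig2-2*, *SEP2* being the exception (6 of 8 on the scale without AT2G01021, where *ELIP2* turned), with a median change of 0.26 and a highest one of 0.42. Of the 18862 loci that reached 1 FPKM in WT or *sig2-2* at that age, 47.7% were higher in the mutant, with a median change of −0.01. None of the 8 genes reached 2-fold, which 4.06% of those loci did in either direction. The combined FPKM values alone cannot separate differences of the size seen in the family at 1 day from replicate error. The authors' own comparison columns were not used here.

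At 7 days 6 of the 8 genes were lower in *sig2-2*, all but *OHP2* and *LIL3:2* (7 of 8 with each condition centred, where *OHP2* turned), with a median change of −0.37. Among the 20057 loci listed at 1 FPKM or more at that age 49.9% were lower, with a median change of 0.00075. *ELIP2* alone was past 2-fold, 1 gene of 8, where 3.87% of the loci were past 2-fold in that direction. In the plot of both ages the 7-day point lies to the left of the 1-day point for each gene. That is, the change from WT to *sig2-2* at 7 days was below that at 1 day in 8 of 8 genes, from a difference of −0.04 for *LIL3:2* to one of −2.46 for *ELIP2*, with a median difference of −0.60. Of the 16872 loci listed at 1 FPKM or more in all 4 conditions 49.3% did the same, with a median difference of 0.0069. On the scale without AT2G01021 the count was 6 of 8, with *OHP2* at 0.0224 and *LIL3:2* at 0.196, the median of the family was −0.37, and 29.1% of the loci lay below 0 with a median of 0.225.

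**Figure D2:**
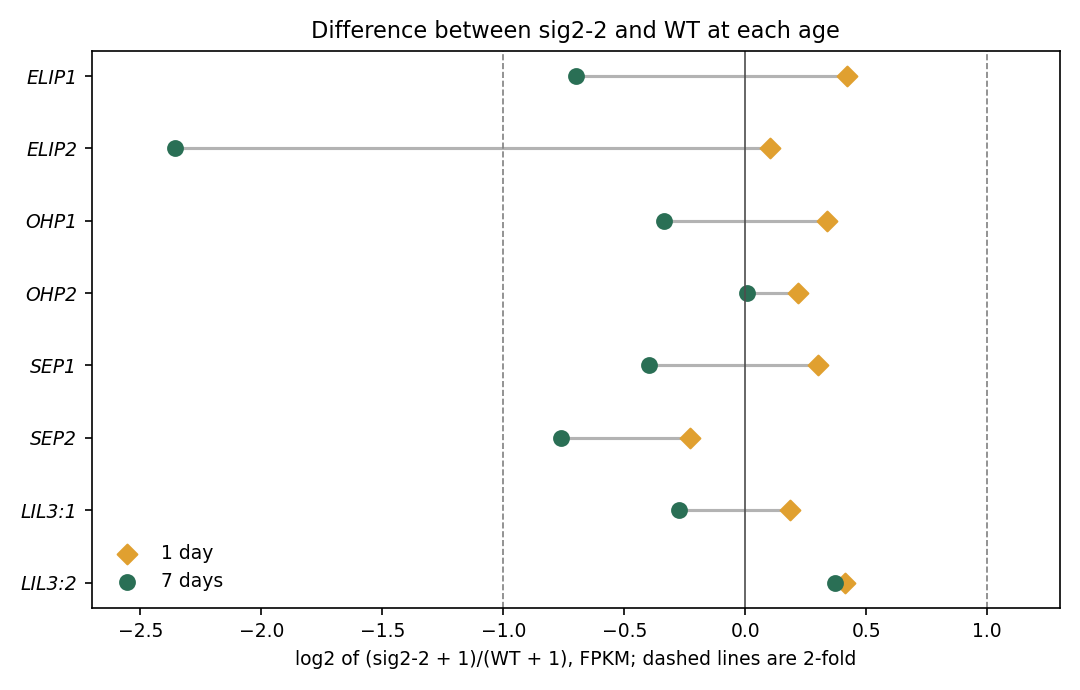
Change from WT to *sig2-2* in log2 of (FPKM + 1) for each gene at 1 day (orange diamonds) and 7 days (green circles), with dashed lines at 2-fold and a grey line joining the ages. The 7-day point of *ELIP2*, at −2.35, is the single point beyond a dashed line, and *OHP2* and *LIL3:2* are the genes whose 7-day points are not below 0.

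Between the ages, the family split into 3 kinds. *ELIP1* and *ELIP2* were past 2-fold lower at 7 days in both genotypes, *OHP1*, *OHP2*, *SEP1* and *SEP2* were past 2-fold higher in both, and the *LIL3* genes were higher by less than 2-fold in both. In *sig2-2*, on the scale without AT2G01021, *SEP1* at 0.91 was no longer past 2-fold and *LIL3:1* turned to −0.0058. In WT, 4 of 8 genes were thus past 2-fold higher, against 19.5% of the 20350 loci, and 2 of 8 past 2-fold lower, against 13.7%. In *sig2-2* the counts were again 4 and 2 (3 and 2 without AT2G01021), against 19.9% and 15.5% of the 20386 loci. *ELIP1* went down by 11.0-fold in FPKM in WT and 25.0-fold in *sig2-2*, and *ELIP2* by 3.45-fold in WT and 26.9-fold in *sig2-2*. For the 6 other genes the change with age was between 0.70 and 2.94 in WT and between 0.24 and 2.73 in *sig2-2*, and for each of the 6 it was smaller in *sig2-2*, except for *OHP2* and *LIL3:2* on the scale without AT2G01021. By arithmetic this is the same difference as the 7-day genotype change lying below the 1-day one, and not a separate result.

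**Figure D3:**
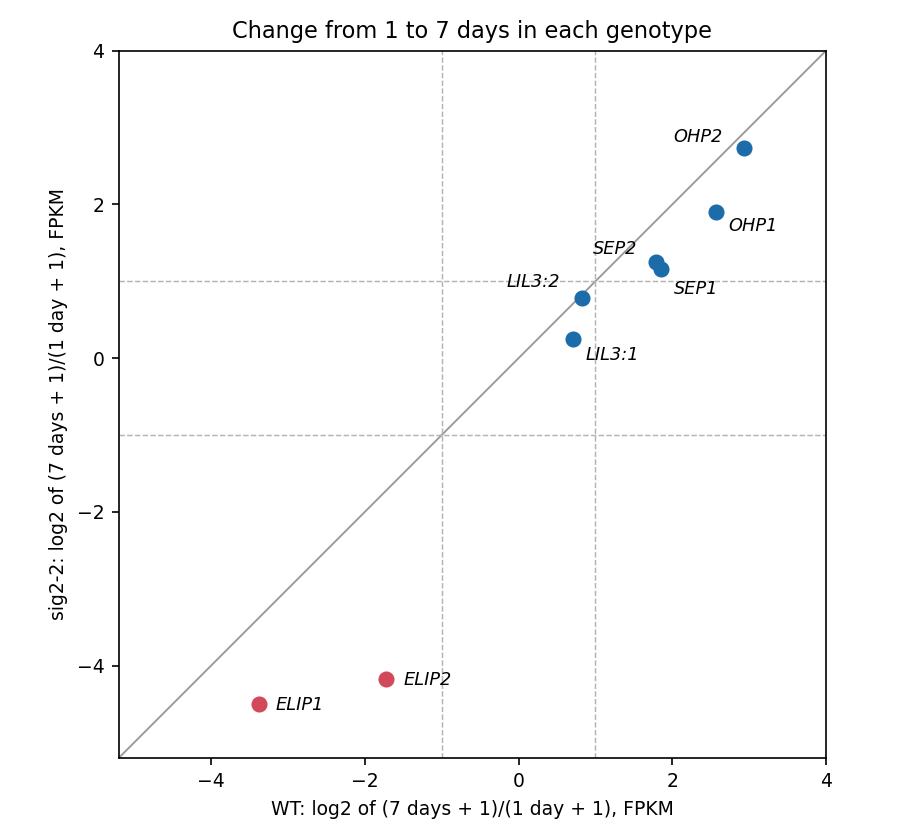
Change from 1 day to 7 days in log2 of (FPKM + 1) in WT (horizontal axis) and *sig2-2* (vertical axis), with the *ELIP* genes in red and the other 6 in blue, the line of equal change in grey and 2-fold as dashed lines. All 8 points lie below the line of equal change, though *LIL3:2* and *OHP2*, nearly on it, cross it on the scale without AT2G01021, and *ELIP2*, at −1.72 in WT and −4.18 in *sig2-2*, farthest from it.

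The make-up of the family differed between the ages more than between the genotypes. Of the FPKM of all 8 genes together, *ELIP1* and *ELIP2* held 28.3% in 1-day WT, 29.1% in 1-day *sig2-2*, 1.78% in 7-day WT and 0.724% in 7-day *sig2-2*. The sum of the 6 other genes was 535 FPKM (1-day WT), 657 FPKM (1-day *sig2-2*), 1594 FPKM (7-day WT) and 1462 FPKM (7-day *sig2-2*). At 1 day in WT the order from the highest level down was *LIL3:2*, *ELIP1*, *LIL3:1*, *SEP1*, *OHP1*, *ELIP2*, *SEP2* and *OHP2*. At 7 days in WT it was *SEP1*, *LIL3:2*, *OHP1*, *OHP2*, *LIL3:1*, *SEP2*, *ELIP1* and *ELIP2*. With no replicate spread, neighbours such as *LIL3:1* and *SEP1* in 1-day WT, at 111 and 107 FPKM, cannot be ranked.

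Likeness of pattern was measured as the Euclidean distance between log2 (FPKM + 1) profiles over the 4 conditions, each centred on its mean. Within the family the nearest pair was *SEP1* and *SEP2* at a distance of 0.455, followed by *LIL3:1* and *LIL3:2* at 0.586 and *OHP1* and *OHP2* at 0.651, while *ELIP1* and *ELIP2* were 1.55 apart. *ELIP1* was at least 4.42 and *ELIP2* at least 3.72 from each of the 6 non-ELIP genes. Among loci that reached 1 FPKM in any condition, the nearest to *ELIP1* were AT3G05190 at 0.409 and *MSL9* at 0.431, and the nearest to *ELIP2* were AT5G45650 at 0.442 and AT5G20790 at 0.495. *OHP1* was nearest to *PGK1* at 0.0275 and *DEG1* at 0.0654, and *OHP2* to AT1G56320 at 0.0689 and AT5G41050 at 0.0769. *SEP1* was nearest to *GGH2* at 0.0903 and *FAP3* at 0.0929, and *SEP2* to *SPD1* at 0.0618 and *ATH1* at 0.0710. *LIL3:1* was nearest to AT5G01595 at 0.0235 and *AUL1* at 0.0277, and *LIL3:2* to AT5G03110 at 0.0407 and *DABB1* at 0.0765. The nearest loci to the *ELIP* genes thus lay farther away than those to the other 6 genes. The profiles were not scaled, so this distance grows with the size of a change. Of 20386 loci only 102 had an age change in *sig2-2* below that of *ELIP1*, and 128 one below that of *ELIP2*. The larger distance is therefore not read as a distinct pattern.

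Genes that work with the family were read beside it, beginning with those tied to OHP1 and OHP2. None of these lists, nor the marker lists further down, was rescaled without AT2G01021, so calls near 2-fold may not hold on that scale. *HCF244*, whose protein joins OHP1 and OHP2 in one complex, was listed at 12.2 FPKM in 1-day WT, 18.4 FPKM in 1-day *sig2-2*, 118 FPKM in 7-day WT and 109.9 FPKM in 7-day *sig2-2*. Its age change of 3.18 in WT and 2.52 in *sig2-2* stood beside 2.94 and 2.73 for *OHP2*. *HCF173*, which acts with *HCF244* in translation of the D1 message, had changes of −0.0013 at 1 day and 0.57 at 7 days. Of the 7 genes for D1 synthesis and photosystem II assembly, the others being *HCF136*, *PAM68*, *LPA1*, *ALB3* and AT1G54500, none was past 2-fold between the genotypes at either age. Of the loci, 4.06% were past 2-fold at 1 day, and 4.46% higher and 3.87% lower at 7 days. With such shares, none among 7 is not read as a trait of these genes. Their median change was 0.15 at 1 day and 0.09 at 7 days.

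Enzymes of chlorophyll synthesis that are held by LIL3 or work beside them were read in the same way. *CHLP*, the geranylgeranyl reductase that makes the phytyl tail of chlorophyll, had, on day 1, 99.1 FPKM in WT against 162 FPKM in *sig2-2* and, on day 7, 1075 FPKM in WT against 1091 FPKM in *sig2-2*. The protochlorophyllide oxidoreductase genes differed more, with 509 FPKM in 7-day WT against 277 FPKM in 7-day *sig2-2* for *PORB*, and 196 FPKM against 82.3 FPKM for *PORC*. *PORA* was past 2-fold higher in *sig2-2* at 1 day, with a change of 1.04, and past 2-fold lower at 7 days, with −1.05. Of the 6 enzymes, the others being chlorophyll synthase (*CHLG*) and divinyl reductase (*DVR*), all were higher in the mutant at 1 day with a median change of 0.61, and 5 were lower at 7 days with a median of −0.68, *PORA* and *PORC* past 2-fold. Of the loci at 1 FPKM or more, 47.7% were higher at 1 day, 2.92% past 2-fold. At 7 days 49.9% were lower, 3.87% past 2-fold. Thus *LIL3:2* was higher in 7-day *sig2-2*, at 0.37, where *PORB* and *PORC* were lower, and *CHLP* differed by a change of 0.02. *LIL3:1*, at −0.27, was lower there, as *PORB* and *PORC* were.

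PSBS, the photosystem II subunit that triggers thermal dissipation, and ferrochelatase 2, which ends in a light-harvesting motif, are further proteins with this helix. *PSBS* (listed as NPQ4) was listed at 182 FPKM in 1-day WT, 236 FPKM in 1-day *sig2-2*, 1843 FPKM in 7-day WT and 1290 FPKM in 7-day *sig2-2*. *FC2* had changes of 0.13 at 1 day and −0.50 at 7 days, beside 0.37 and −0.51 for *PSBS*. Both were thus higher in the mutant at 1 day and lower at 7 days, as were *ELIP1*, *OHP1*, *SEP1* and *LIL3:1* and, save for the 1-day scale without AT2G01021, *ELIP2*.

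The antenna genes, which give the family its name, differed from it in size of change. Of the 20, 19 were higher in *sig2-2* at 1 day, where 47.7% of the loci were, and 7 of them were past 2-fold, where 2.92% of the loci were. The median change was 0.79 against 0.26 in the family. These counts were not redone on the scale without AT2G01021. There the median 1-day genotype change of loci at 1 FPKM or more in all conditions went from −0.01 to −0.15. Calls near 2-fold, such as *LHCB4.1* at 1.01 and *LHCB3* at 1.04, may not hold on it. At 7 days 14 of the 20 were lower, where 49.9% of the loci were, with a median change of −0.14. *LHCB4.3* and *LHCB2.4* were past 2-fold lower at −2.20 and −1.16, where 3.87% of the loci were. The 6 higher were *LHCA4* and the *LHCB1* genes. Of these *LHCB1.3* was past 2-fold at 1.06, where 4.46% of the loci were past 2-fold higher. Summed over the list, the level was 59678.3 FPKM in 7-day WT against 80827.5 FPKM in 7-day *sig2-2*. The *LHCB1* and *LHCB2* genes include near-identical copies, so the share of each is uncertain. With age the median antenna change was 6.86 in WT and 5.65 in *sig2-2*, and the lowest in WT was 2.30, so that *ELIP1* and *ELIP2* went down over the interval in which each antenna gene went up in WT. Of the 4 genes for insertion of antenna proteins into the thylakoid, *cpSRP43*, *cpSRP54*, *cpFTSY* and *ALB4*, none was past 2-fold between genotypes, and their median changes were 0.17 and −0.19. At 1 day 4.06% of the loci were past 2-fold, so none among 4 is not read as a trait of these genes.

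**Figure D4:**
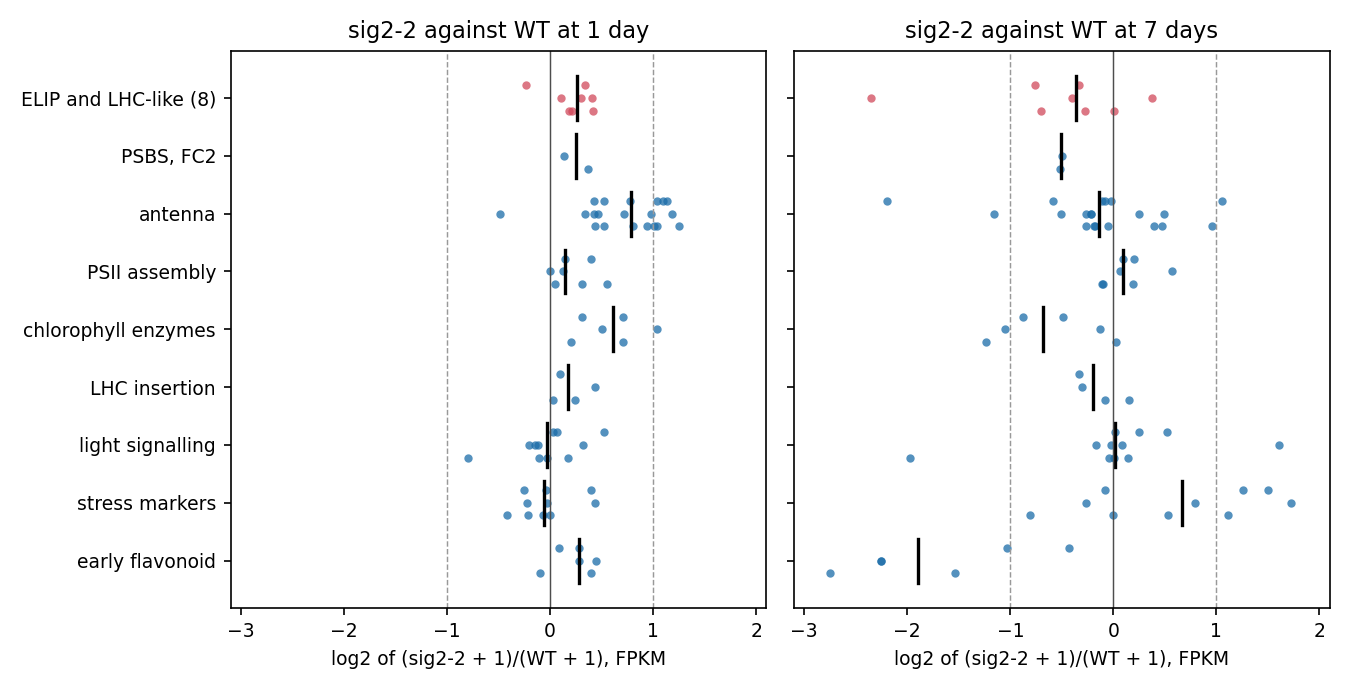
Change from WT to *sig2-2* in log2 of (FPKM + 1) at 1 day (left) and 7 days (right), with a point for each gene, a black bar at the median of each list and dashed lines at 2-fold. The family (red) has medians of 0.26 and −0.37, the antenna list 0.79 and −0.14, and the early flavonoid list 0.28 and −1.89.

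Light signalling genes that bear on *ELIP* expression were mostly at like levels in both genotypes. HY5, a bZIP factor that binds the ACGT core, is required for light induction of the *ELIP* genes, and COP1 targets it for degradation. *HY5* had, on day 1, 36.1 FPKM in WT against 35.3 FPKM in *sig2-2* and, on day 7, 20.9 FPKM in WT against 20.3 FPKM in *sig2-2*, and *COP1* had changes of 0.03 and 0.02. Of 11 such genes, none was past 2-fold at 1 day, where 4.06% of the loci were, 2.92% higher and 1.15% lower. At 7 days, where 4.46% of the loci were past 2-fold higher and 3.87% lower, *GLK1*, an activator of nuclear photosynthesis genes, was past 2-fold lower at −1.97, and *RUP1*, a repressor of the UV-B receptor UVR8, was past 2-fold higher at 1.61. The median of the 11 was −0.03 at 1 day and 0.02 at 7 days. Transcript levels say nothing of the amount of HY5 protein, which was not measured.

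The early flavonoid genes, which HY5 also activates, were lower in 7-day *sig2-2* as *ELIP2* was. *CHS*, chalcone synthase, the first step of the pathway, was listed at 147 FPKM in 1-day WT, 194 FPKM in 1-day *sig2-2*, 143 FPKM in 7-day WT and 20.4 FPKM in 7-day *sig2-2*. Of the 6 genes, 5 were past 2-fold lower in the mutant at 7 days, where 3.87% of the loci were, with changes of −2.75 for *CHS*, −2.25 for *CHIL*, −2.25 for *FLS1*, −1.53 for *F3H* and −1.03 for *CHI*, and the regulator *MYB12* had −0.43. At 1 day their median change was 0.28 and none was past 2-fold, where 4.06% of the loci were. From 1 day to 7 days in WT, where *ELIP2* had −1.72, the changes were −1.04 for *F3H*, −0.67 for *CHI*, −0.31 for *MYB12*, −0.04 for *CHS*, 0.0012 for *FLS1* and 0.60 for *CHIL*.

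Some markers of light and oxidative stress were higher in 7-day *sig2-2*, where *ELIP1* and *ELIP2* were lower. Of 10 such genes, 4 were past 2-fold higher in *sig2-2*, the zinc finger genes *ZAT10* at 1.72 and *ZAT12* at 1.5, the plastid superoxide dismutase *CSD2* at 1.26 and *MO1* at 1.11, and none was past 2-fold lower, where 4.46% of the loci were past 2-fold higher. In all, 6 of the 10 were higher, 3 were lower and 1 was equal, with a median change of 0.66. Those lower were *APX1*, a cytosolic ascorbate peroxidase gene with 1226 FPKM in WT against 699 FPKM in *sig2-2* and a change of −0.81, *CRY3* at −0.27 and *MEB5.2* at −0.08. *ZAT10* had 7.06 FPKM in WT against 25.6 FPKM in *sig2-2* at that age. *APX2*, an ascorbate peroxidase gene strongly induced by excess light, was listed at 0 in 3 conditions and at 0.158 FPKM in 1-day WT. At 1 day none of the 10 was past 2-fold, where 4.06% of the loci were, and their median change was −0.05.

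Several measures of the samples moved with these comparisons. *SIG2* itself had, on day 1, 66.5 FPKM in WT against 1.31 FPKM in *sig2-2* and, on day 7, 87.7 FPKM in WT against 1.49 FPKM in *sig2-2*, so the values followed the labels. Of 4 shoot mesophyll markers (*RBCS1A*, *RCA*, *CA1*, *PRK*), 3 were higher in *sig2-2* at 1 day with a median change of 0.84, and 4 were lower at 7 days with a median of −0.37, the median of the family at that age. Their summed level was 2030 FPKM (1-day WT), 3297 FPKM (1-day *sig2-2*), 32233 FPKM (7-day WT) and 24724 FPKM (7-day *sig2-2*), with *CA1* listed at 0.0454 and 0 FPKM at 1 day. All 6 root markers and all 5 seed markers were higher in *sig2-2* at 1 day, with medians of 1.53 and 2.02. Of the loci at 1 FPKM or more, 47.7% were higher in *sig2-2* at 1 day. At 7 days 49.9% of the loci were lower, 3.87% past 2-fold. Root markers summed to 20.9 FPKM in 1-day WT, 79.0 FPKM in 1-day *sig2-2*, 34.8 FPKM in 7-day WT and 33.7 FPKM in 7-day *sig2-2*. At 7 days 5 of the 6 root markers were lower in *sig2-2*, with a median change of −0.77 and *EXPA7* and *EXPA18* past 2-fold at −1.22 and −1.01, while *CASP1*, at 19.8 FPKM in WT against 28.0 FPKM in *sig2-2*, made up most of the sum. Seed markers summed to 16.9 FPKM in 1-day WT, 131 FPKM in 1-day *sig2-2*, 0.372 FPKM in 7-day WT and 3.04 FPKM in 7-day *sig2-2*. The part of these shifts in the values of the family was not tested.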

How the data were processed

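Total RNA of whole seedlings was made into TruSeq mRNA libraries, and the authors deposited FPKM values from Cufflinks and Cuffdiff, giving 1 number a locus for the 3 pooled replicates of each condition. Versions, aligner, annotation, build and strandedness are not given in the sources used here. The deposited comparison columns (log2 ratio, test statistic, p-value, q-value and a call) were not used. Nuclear values were the same in the table of all conditions (33078 loci) and the tables of single conditions (33349 loci), with a largest difference of 0.

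The 8 genes and all lists were chosen with earlier results of these data known. Genes named are the 8 members, *SIG2*, list genes past 2-fold between genotypes or acting directly with a member, list members by name, and the 2 nearest profiles of each member. AT2G01021 and the 3 neighbours with a shared span were named after their values were seen. Changes used a pseudocount of 1, and shares of loci were taken over those listed at 1 FPKM or more in either condition compared. Changes past 2-fold put into the 1-day WT values of loci at higher FPKM came back from the calculation. That check covers the arithmetic only, since it held no replicates and put no changes into loci at low FPKM. Sequences, gene starts and words of 55 bases came from RefSeq TAIR10.1. Alternatives were a pseudocount of 0.1, centring, rescaling without the highest locus, a filter on low values, a 1.5-fold threshold and the tables of single conditions. Python 3.11.15, biopython 1.88 and matplotlib 3.10.9 were used.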

Additional observations from a re-analysis of the deposited data

Results flagged for a closer look

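For 5 of the 8 genes the change from WT to *sig2-2* had one sign at 1 day and the other at 7 days. The share of all loci with such a turn of sign was not worked out, so this count has no background beside it. The 7-day change minus the 1-day change was −1.12 for *ELIP1*, −2.46 for *ELIP2*, −0.672 for *OHP1*, −0.698 for *SEP1* and −0.46 for *LIL3:1*, all from higher in *sig2-2* to lower. These differences between ages were not tested, because the replicates are combined in the files. For *ELIP2* the opposite sign rests on a 1-day change of 0.10, which was −0.037 on the scale without AT2G01021.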

How the results depend on the processing

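No paired analysis was possible because the replicates are combined into 1 column for each condition, and for the same reason no replicate could be left out. At 1.5-fold, 3 members were past the threshold between genotypes at 7 days (all lower) in place of 1, and the loci past it numbered 2024 at 1 day and 4359 at 7 days between genotypes, and 11528 in WT and 11899 in *sig2-2* between ages, in place of 766, 1671, 6753 and 7230 at 2-fold. The share of loci past 1.5-fold lower was not worked out, so the 3 members have no background beside them. A pseudocount of 0.1 gave 2492 loci at 1 day and 3576 at 7 days between genotypes. Rescaling without AT2G01021 moved the median change of the members to 0.12 at 1 day, and with age to 0.83 in WT and 0.72 in *sig2-2*, from 0.26, 1.31 and 0.97. The filter on low values and the tables of single conditions cannot move a member's value. Of 96 values of single members under the 3 alternatives that can, 92 kept their direction and their side of 2-fold, 3 within 2-fold changed sign (*ELIP2* at 1 day, *OHP2* at 7 days, *LIL3:1* with age in *sig2-2*) and 1 came under 2-fold (*SEP1* with age in *sig2-2*). Among alternatives added after the data were seen, the count of members with a 7-day genotype change below the 1-day one was 6 without AT2G01021 and 8 with a pseudocount of 0.1 or with centring. The 7-day change of *ELIP2* ranged from −2.79 to −2.31. Values such as 1.94 FPKM rest on an unknown number of fragments.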
